A study of Mus musculus with 6 samples.

Results

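Xcr1 Clec9a dendritic cells are described here in 6 droplet RNA libraries of mouse dermal collecting lymphatic vessels. Each library was read as counts of unique molecular identifiers (UMIs), 1 per captured transcript. Barcodes were kept when 500 genes or more were detected and mitochondrial UMIs did not exceed 10%, which left 24488, and 89 of them were members. Members were chosen by the UMIs of genes that mark the cells. A member had at least 1 UMI of Xcr1 or Clec9a, at least 10 UMIs of H2-Aa, H2-Ab1, H2-Eb1 and Cd74 together, at most 2 of C1qa, C1qb and C1qc, and 0 of Ccr7, Cd3e and Cd79a. The same gate without Xcr1 and Clec9a held 1586 dendritic cells, the 89 included, of which 446 had Cd209a and neither Xcr1 nor Clec9a, and these are called Cd209a-positive cells. The other 1051 had none of the 3 genes. The levels of these 13 genes, Cd209a included, are therefore given as a description and were not tested.

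The vessels join the inguinal to the axillary lymph node of C57BL/6 mice and were taken with cells of their surroundings, after Evans Blue had been injected into the inguinal node. Young mice were 6 weeks old, middle-aged mice 12 months and aged mice 18 months, with 1 library labelled male and 1 labelled female at each age, and no treatment or allele set the groups apart. The aged mice came from the National Institute on Aging, so source and age cannot be told apart. The labels name no animals behind a library, so p-values measure the spread between libraries, which may be technical.

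Conventional dendritic cells fall into a type 1 and a type 2 (cDC1 and cDC2). cDC1 arise under the transcription factors Irf8, Batf3 and Id2, sense the chemokine Xcl1 through Xcr1, bind the exposed actin of dead cells through Clec9a and present antigen taken from other cells on MHC class I to CD8 T cells. In mouse skin many of them carry the integrin CD103 (Itgae) and langerin (Cd207). cDC2, among which Cd209a and the lectin Mgl2 (CD301b) are common in dermis, rely more on Irf4, Klf4 and Zeb2 and mainly prime CD4 T cells.

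Libraries held 9616652 to 28921825 UMIs, and 999 to 8228 barcodes were kept in each. Both middle-aged libraries went against their labelled sex. In counts per 1000000 UMIs (CPM), Xist stood at 1402 in the library with the male label and at 0.255 in the one with the female label, and Y-linked genes at 0.106 and 265. Members of these libraries showed the same, with 82 and 0 Xist UMIs. They are named below by their labels. Of the kept barcodes 63 occurred in more than 1 library, and 1 of these was a member, in 1 library. Scrublet marked 3 members and 21 Cd209a-positive cells as doublets, and they were kept in.

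The gate mixed cells with clear cDC1 levels and some without. Xcr1 alone was seen in 28 members, Clec9a alone in 39 and both in 22, and 51 members rested on 1 UMI. Xcr1 and Clec9a reached 5 and 3 UMIs in a cell. Members had 13 to 542 MHC class II UMIs (median 130.0, against 122.5 in Cd209a-positive cells), 1 of them between 10 and 19, and 7 held 1 or 2 C1q UMIs. Of 140 barcodes with an Xcr1 or Clec9a UMI, 51 stayed outside. Among these, 18 failed MHC class II alone (3 of them with 5 to 9 UMIs), 14 failed only through Ccr7, the receptor that guides dendritic cells to lymph nodes, and 13 through C1q alone (1 of them with 3 or 4 UMIs). In fibroblast-gated barcodes, which should lack both genes, 7 of 11972 (0.0585%) held Xcr1 or Clec9a, at a median of 3635 UMIs against 3720.0 in members.

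Each member was checked against 26 cDC1 and 25 cDC2 list genes other than the gate genes. The cDC1 list summed to at least as many UMIs as the cDC2 list in 57 of 89 members (64.0%), 3 of 446 Cd209a-positive cells (0.673%) and 109 of 1051 cells with none of the 3 genes (10.4%). Among members with both Xcr1 and Clec9a it did so in 18 of 22, and with 1 UMI in 27 of 51. The 12 members that also held Cd209a went against the name. The cDC1 list reached the cDC2 list in 0 of these 12, against 57 of the 77 members without Cd209a, Irf8 was seen in 1 of 12 against 48 of 77, and Mgl2 in 7 of 12 against 1 of 77. They held 43 of the 44 Mgl2 UMIs of all members. Results below include these 12, and beside a named gene whose value moved by over 1.5 times or whose call was lost without them, that is said.

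**Figure D1:**
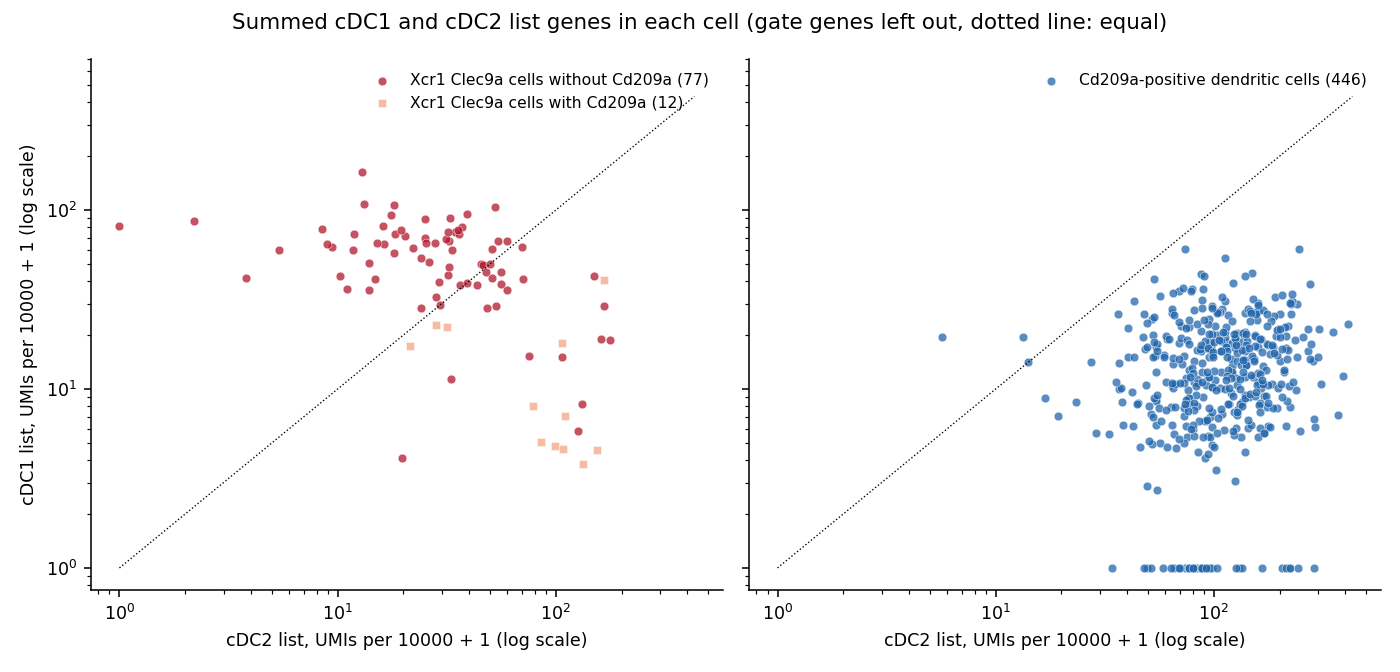
Each point is 1 cell, with the summed cDC2 list on the horizontal and the summed cDC1 list on the vertical axis (UMIs per 10000 UMIs of the cell, plus 1, log scales), members left and Cd209a-positive cells right. Most of the 77 members without Cd209a lie above the line of equal values, while the 12 with Cd209a and nearly all of the 446 Cd209a-positive cells lie below it.

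The members were a small share of every library. They numbered 24 and 26 in the male and the female library of young mice, 18 and 3 in those labelled male and female of middle-aged mice, and 13 and 5 in those of aged mice. As a share of gated dendritic cells this was 4.36% and 8.64% in young, 3.81% and 10.3% in middle-aged and 11.5% and 4.17% in aged libraries, and 5.61% in all (exact 95% interval 4.53 to 6.86, counting error only). The libraries of each age differed from each other by as much as the ages did. Aged libraries averaged 7.84% and young ones 6.50%, a difference of 1.33 points (exact permutation test, two-sided, p = 1.00, with 0.333 the smallest p that 2 against 2 libraries allow). As a share of all kept barcodes aged libraries averaged 0.394% and young ones 0.435% (exact permutation p = 1.00). The first difference turned to -2.33 points without aged male and to -0.802 points without young male, and the second to 0.102 points without young female and to 0.00109 points without aged female. With each barcode thinned to 1000 UMIs before the gate the first stood at -0.425 points.

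**Figure D2:**
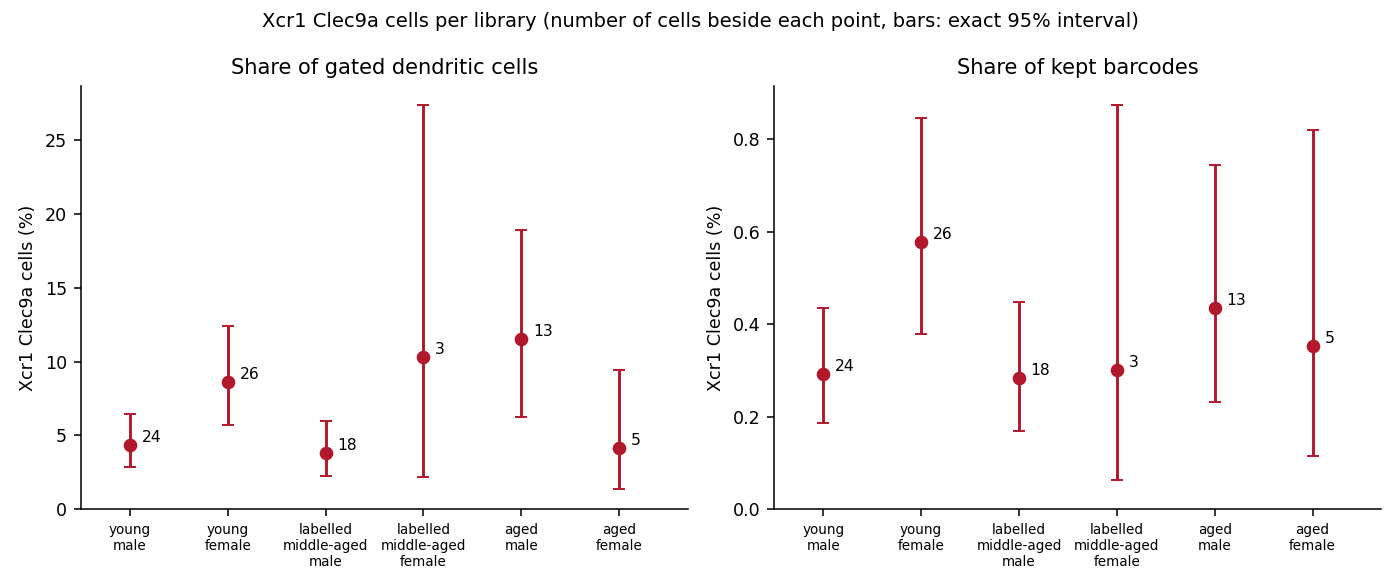
Xcr1 Clec9a cells as a percentage of gated dendritic cells (left) and of kept barcodes (right) in each library, with exact 95% intervals and the number of cells beside each point. The shares run from 3.81% to 11.5% of gated cells, and the intervals of both aged libraries overlap those of both young ones.

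Median UMIs per cell were above those of Cd209a-positive cells in each of the 4 libraries with 10 or more members. The medians were 2673.5 against 2016.0 in young male, 3952.5 against 3206.0 in young female, 2882.5 against 2655.0 in labelled middle-aged male and 5420.0 against 4369.5 in aged male. The mean log2 ratio was 0.28 ± 0.12 (SD, n = 4 libraries), above 0 in 4 of 4. The exact sign-flip p was 0.125, the smallest that 4 libraries allow. Members had to hold a UMI of rarely counted genes, which a deeper cell is more likely to show. The gate thus shapes this ratio, and its sign and p are no test of a difference between the cell types. Median UMIs were 3145 in the 51 members with 1 Xcr1 or Clec9a UMI and 5326 in the 38 with 2 or more. Levels below are therefore in CPM of each summed group, and shares of cells are also given after thinning to 1000 UMIs.

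Genes were compared between members and Cd209a-positive cells of the same library, in sums per library. The 4 libraries with at least 10 cells in both groups were fitted, with 81 members and 412 Cd209a-positive cells and with 61692 to 114589 and 181159 to 393649 UMIs per sum. Values by library follow the order young male, young female, the middle-aged library with the male label, and aged male. Means with SD are over these 4 (n = 4), SE is that of the log2 fold change, and every adjusted p is from edgeR's quasi-likelihood test with Benjamini-Hochberg adjustment. Fewer cells with a transcript and less of it per cell cannot be told apart in such sums.

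In members 12 of 14 tested genes of the cDC1 list were higher, Irf8 among them. Of the cDC2 list 14 of 17 tested genes were lower, Zeb2 among them. Of 1884 genes tested, 250 (13.3%) passed an adjusted p of 0.05, 123 higher (6.53%) and 127 lower (6.74%), and the 4 values of each group did not overlap in 224 (11.9%). The median log2 fold change of all genes was 0.00, 500 genes had an unadjusted p under 0.05, and DESeq2 called 129. The count was 86 without aged male, 87 without young female, 146 without young male and 321 without labelled middle-aged male. Without the 12 members that hold Cd209a it was 263, of which 228 were among the 250. Of 60 calls among the genes named by rule, 30 passed without each of the 4 libraries in turn, 1 (Tnfrsf1b) could not be tested without young female and passed otherwise, and 29 were lost without at least 1 library. Where a gene below is among these 29, the libraries concerned are named. Against all other gated dendritic cells, a wider set of cells in the same libraries, 52 of the 60 passed in the same direction. Cd24a (log2 0.78), Cd36 (0.55), Ccr2 (-1.09), Il1b (-0.28), Ctss (-0.68), Cd14 (-0.84), Ifngr1 (0.79) and Tnfsf9 (-0.90) did not, with edgeR adjusted p of 0.0503 to 0.524. Among those that passed, Irf8 (3.09), Trim35 (2.56), Rab7b (2.20), Ifi205 (2.18), Pla2g16 (1.61), Mgl2 (-2.38), Clec10a (-1.85), Wfdc17 (-2.18), Il7r (-2.06), Tmem176a (-1.32), Ms4a6c (-1.25) and Tnip3 (-1.49) lay over 1.5 times nearer to 0 than against Cd209a-positive cells alone. Retnla (-4.06) and Jaml (2.04) lay further from 0 by as much.

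Of 13 transcription factors of dendritic cells that could be tested, Irf8 was higher and Zeb2 lower in members, and 11 did not pass (median log2 -0.21). Irf8 (ENSMUSG00000041515, mm10 chromosome 8, 120736358 to 120756694), the factor that cDC1 need to arise and persist, had 504, 707, 519 and 515 CPM in members against 45.7, 12.8, 14.0 and 5.52 CPM in Cd209a-positive cells. Every member sum was above every Cd209a-positive sum, as were the unfitted sums of 3 and 5 cells (166 and 758 CPM, against 18.3 and 49.6 CPM). Its mean was 561 ± 97.3 CPM in members and 19.5 ± 17.9 CPM in Cd209a-positive cells, a log2 fold change of 4.84 ± 0.38 (SE, edgeR adjusted p = 8.8e-07), the largest among the genes called higher at 30 CPM or more that the rule could name. Irf8 stood at a log2 of 5.69 without young male. It was seen in 55.1% of members and 4.93% of Cd209a-positive cells (37.1% and 1.58% after thinning), and in 1.39% of fibroblast-gated barcodes.

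Zeb2 (ENSMUSG00000026872, mm10 chromosome 2, 44983632 to 45117395), a repressor that favours cDC2 over cDC1 development, had 106, 61.1, 340.4 and 177 CPM in members against 528, 598, 682 and 822 CPM in Cd209a-positive cells. The groups did not overlap, and the labelled middle-aged male sum was the highest among members (log2 -2.0 ± 0.29, SE, edgeR adjusted p = 3.2e-04). The other factors did not pass or could not be tested. Id2, the inhibitor of E proteins needed for cDC1, averaged 380.3 ± 172 CPM in members and 266 ± 68.1 CPM in Cd209a-positive cells (log2 0.58 ± 0.23, edgeR adjusted p = 0.114). Runx3 stood at log2 0.79 ± 0.27 (edgeR adjusted p = 0.0705) with groups that did not overlap in the fitted libraries, and Klf4 at 0.22 ± 0.23. Batf3, the partner of Irf8 in cDC1, had too few UMIs to test. It was counted at 21 UMIs in members and 93 in Cd209a-positive cells over all libraries, at means of 44.7 ± 25.7 and 55.8 ± 23.8 CPM over the fitted sums, and its groups overlapped. Irf4, also untested, had 5 UMIs in members and 76 in Cd209a-positive cells.

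Genes of the cDC1 list were mostly higher in members. Of its 26 genes outside the gate 14 could be tested, and 12 were higher in members and 0 lower, with a median log2 of 2.54 beside 0.00 over all genes. These genes entered the test in part through their level in members, and the list was drawn up for this cell type, so the count describes and adds no independent support. It was 7 of 15 without aged male and 12 of 13 without the members that hold Cd209a. Summed, the list made up 4378, 6327, 3647 and 4372 CPM in members against 1486, 1449.7, 1316 and 872 CPM in Cd209a-positive cells.

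Wdfy4, a scaffold protein that cDC1 need to present antigen of other cells on MHC class I, had 517, 436, 276 and 309 CPM in members against 83.8, 44.8, 25.1 and 66.2 CPM in Cd209a-positive cells. Cadm1, an adhesion molecule that T cells bind through Crtam, had 239, 218, 146 and 118 CPM against 5.08, 9.60, 25.1 and 5.52 CPM. Their log2 fold changes were 2.96 ± 0.30 (Wdfy4) and 4.03 ± 0.46 (Cadm1), with edgeR adjusted p of 8.2e-06 and 2.8e-05, and neither gene overlapped between the groups. The lysosomal thioesterase Ppt1 averaged 448 ± 309 CPM in members and 43.9 ± 12.6 CPM in Cd209a-positive cells (log2 3.29 ± 0.36). The small GTPase Rab7b of endosomes averaged 403 ± 78.6 and 46.9 ± 16.8 CPM (log2 3.15 ± 0.30), and the septin Sept3 121 ± 48.8 and 11.1 ± 5.36 CPM (log2 3.32 ± 0.48). Ppt1 was most uneven among members, with 899 CPM in young female and 195 to 353 CPM in the other 3 libraries.

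Smaller differences of the list depended on single libraries. Naaa, a lysosomal amidase, averaged 430.5 ± 191 CPM in members and 183 ± 79.4 CPM in Cd209a-positive cells (log2 1.33 ± 0.27) and lost its call without young female or aged male. Cd24a (log2 1.54 ± 0.39) lost its call without young male or aged male, Hepacam2 (log2 2.12 ± 0.41) without aged male, and the scavenger receptor Cd36 (log2 1.32 ± 0.35) without young female or aged male, while Cd36 was not tested without labelled middle-aged male. Ckb (log2 0.82 ± 0.23) lost its call without young male, young female or aged male. Flt3, the receptor for the growth factor of dendritic cells, stood at 105 ± 61.9 CPM in members and 64.3 ± 14.6 CPM in Cd209a-positive cells (log2 0.84 ± 0.37, edgeR adjusted p = 0.159).

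Several genes of the list were too rare to test and were rarer still in Cd209a-positive cells. Tlr3, the receptor for double-stranded RNA, had 33 UMIs in members and 2 in Cd209a-positive cells, and was seen in members of all 6 libraries. It was present in 27.0% of members and 0.448% of Cd209a-positive cells (8.99% and 0.226% after thinning), but also in 5.29% of fibroblast-gated barcodes. Itgae had 15 UMIs in 7 members, Cd8a 10 UMIs in 6 and Cd207 7 UMIs in 4, and each had 0 UMIs in the 446 Cd209a-positive cells. Over the fitted sums this made Itgae at least 15.6-fold, Cd8a at least 13-fold and Cd207 at least 9.09-fold higher, with 3 counts over the group as the floor. All 4 Cd207 cells and 5 of 6 Cd8a cells were in young female, whereas Itgae was spread over young male (3 cells), young female (2), labelled middle-aged male (1) and labelled middle-aged female (1). Their shares in fibroblast-gated barcodes were 0.0501% (Itgae), 0.0251% (Cd8a) and 0.00835% (Cd207), against 7.87%, 6.74% and 4.49% of members. The 1051 gated cells with no Xcr1, Clec9a or Cd209a UMI held 36 UMIs of Tlr3 in 23 cells (2.19%), 5 of Itgae, 2 of Cd8a and 1 of Cd207.

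Further genes outside the list were as clearly higher. Havcr2, the checkpoint receptor TIM-3, had 119, 244, 129.7 and 324 CPM in members against 10.2, 22.4, 14.0 and 22.1 CPM in Cd209a-positive cells (log2 3.58 ± 0.35, SE, edgeR adjusted p = 8.0e-06). Its lowest fitted member sum was above the highest fitted Cd209a-positive sum. The unfitted sums of members held 0 CPM in labelled middle-aged female and 44.6 CPM in aged female, against 36.6 and 0 CPM. Trim35, a ubiquitin ligase, averaged 260.3 ± 54.6 CPM in members and 25.6 ± 7.28 CPM in Cd209a-positive cells (log2 3.40 ± 0.33), Ncoa7 245 ± 86.8 and 40.1 ± 12.6 CPM (log2 2.74 ± 0.33), and Aif1, an actin-binding protein of myeloid cells, 342 ± 158 and 56.8 ± 25.4 CPM (log2 2.68 ± 0.30). Trim35 and Ncoa7 were also seen in 25.8% and 25.3% of fibroblast-gated barcodes, beside 49.4% and 42.7% of members, and the part of free RNA in their levels was not tested. Pla2g16 (log2 2.43 ± 0.49) lost its call without aged male. Cst3, the protease inhibitor cystatin C, was chosen after its values were seen, since it was the only call among 5 tested dendritic cell genes. It had 18586, 18483, 10666 and 13220.5 CPM in members against 3638, 3226, 2942 and 3235 CPM in Cd209a-positive cells (log2 2.29 ± 0.12, SE, edgeR adjusted p = 3.7e-09). Cst3 was also seen in 80.1% of fibroblast-gated barcodes. Other genes named in this report were common there too, with Zeb2 in 68.1%, H2afz in 58.2%, Gda in 45.4%, Psme1 in 40.3% and Rab7b in 20.8%. The part of free RNA was not tested for any gene.

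**Figure D3:**
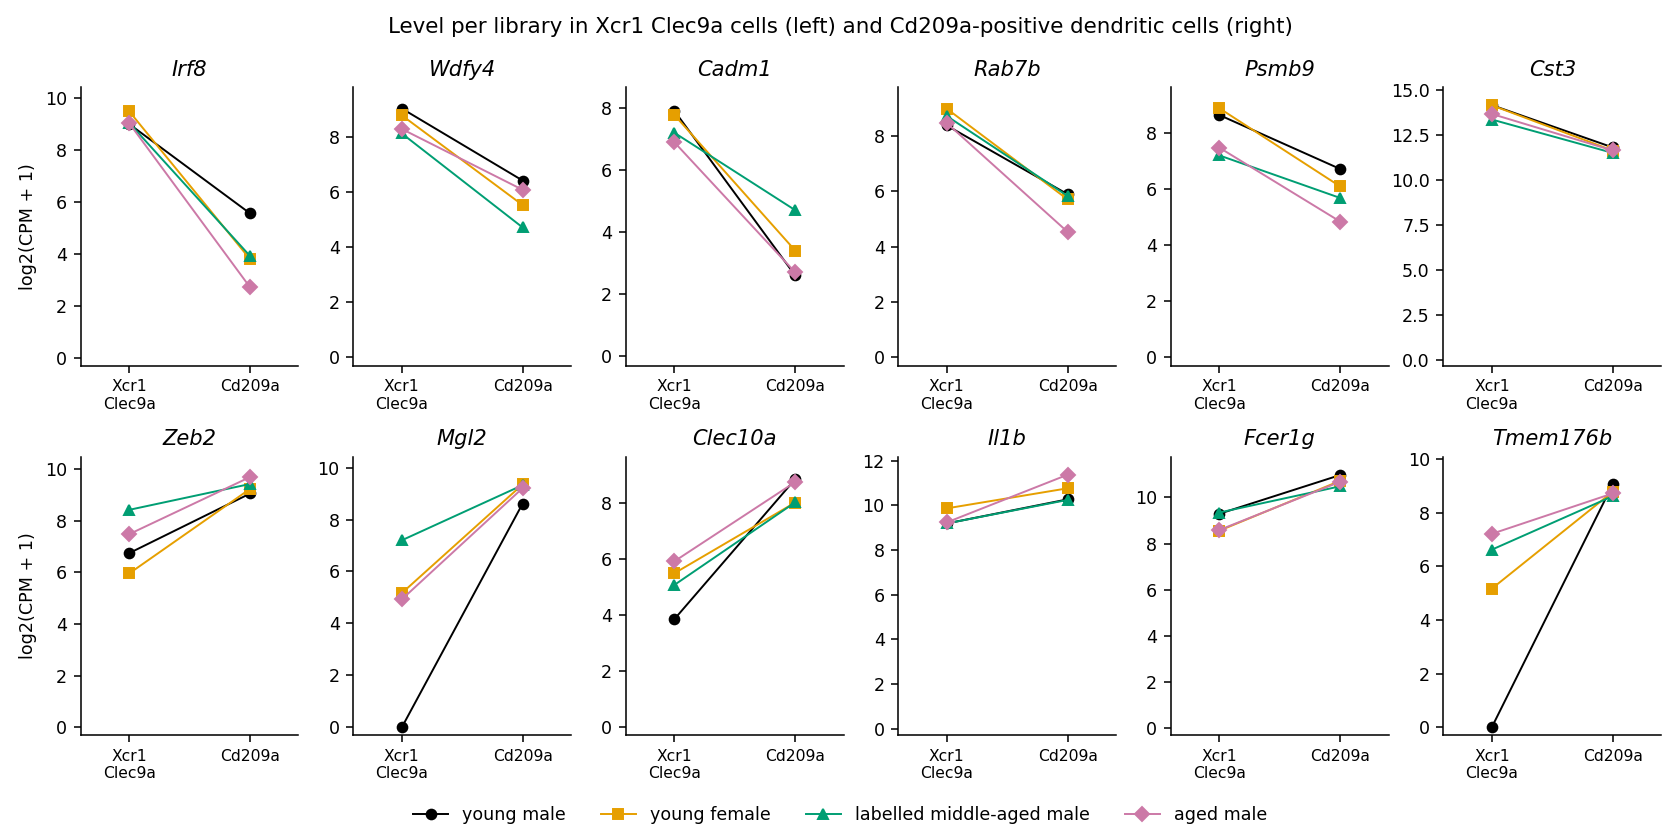
Level of 12 genes per library as log2(CPM + 1), in Xcr1 Clec9a cells (left of each panel) and Cd209a-positive cells (right), with a line for each of the 4 fitted libraries. Irf8, Wdfy4, Cadm1, Rab7b, Psmb9 and Cst3 fall to the right in every library, and Zeb2, Mgl2, Clec10a, Il1b, Fcer1g and Tmem176b climb to the right in every library.

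Parts of the immunoproteasome, which cuts proteins into peptides for MHC class I, were higher in members, while MHC class I genes themselves did not pass the test. Of 20 tested genes of MHC class I and cross-presentation 5 were higher in members (Psmb8, Psmb9, Psme1, Wdfy4, Rab11a), 1 was lower (Cybb) and 14 did not pass, with a median log2 of 0.29 beside 0.00 over all genes. Psmb9 had 398, 471, 146 and 177 CPM in members against 104, 67.2, 50.3 and 27.6 CPM in Cd209a-positive cells (log2 2.33 ± 0.31, SE, edgeR adjusted p = 1.2e-04). Psme1, a subunit of the proteasome activator PA28, had 796, 655, 551 and 559 CPM against 285, 240, 296 and 282 CPM (log2 1.32 ± 0.21, SE, edgeR adjusted p = 6.4e-04). The fitted sums overlapped in neither gene, and both calls held without each library. In the unfitted sums Psmb9 stood at 27.6 against 73.2 CPM in labelled middle-aged female and at 223 against 70.9 CPM in aged female. Cybb, the NADPH oxidase subunit gp91phox, averaged 117 ± 95 CPM in members and 468 ± 65.2 CPM in Cd209a-positive cells (log2 -2.05 ± 0.38) and lost its call without aged male. B2m stood at log2 -0.28 ± 0.17, H2-K1 at -0.48 ± 0.19 and the peptide transporter Tap1 at 1.17 ± 0.39 (edgeR adjusted p = 0.339, 0.116 and 0.0603).

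For MHC class II, H2-Aa was at 7042 ± 506 CPM in members and 8691 ± 867 CPM in Cd209a-positive cells and Cd74 at 14112 ± 1332 and 19482 ± 2843 CPM, which is a description since the gate used them. Of 7 tested genes that load or cut antigen for MHC class II, Ctss, the cathepsin that trims the invariant chain, was lower (393 ± 35.7 CPM in members and 715 ± 101 CPM in Cd209a-positive cells, log2 -0.76 ± 0.20, edgeR adjusted p = 0.0173). It lost its call without young male, young female or aged male. The peptide exchange factor H2-DMa stood at log2 -0.13 ± 0.20, and Cd9, Lgmn and H2-DMb2 at 0.72 ± 0.25, -1.17 ± 0.49 and -0.76 ± 0.40, none past the threshold.

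Promoters of the named genes were searched for motifs that Irf8 and related factors are known to bind. Of 78 named genes 66 matched a RefSeq promoter (GRCm38.p6, 250 bases before and 50 after the start), with 81 promoters, and both strands were read. The composite motifs of Batf with Irf, TTTC and TGA with 4 bases between them and then any base and TCA, or GAAATGA, any base and TCA, were in 0 of the 81 and in 0.119% and 0.125% of 32851 promoters. The interferon-stimulated response motif, GAAA, any 2 bases and GAAA again, was in 10 of the 81 and in 3.44% of all, and the composite of Ets with Irf, GGAA and GAAA with any 2 bases between, in 2 (Cybb and Psme1) and in 2.72% of all. The 10 were those of genes higher in members (Aif1, Ifi205, Jaml, Ncoa7, Psme1), lower (Ctss, Cybb, Tnfrsf1b) and not past the threshold (Bst2, Isg15). Bst2, Isg15 and Ifi205 are on the list of interferon-induced genes, and Psme1 and Cybb on that of MHC class I and cross-presentation. The named genes were thus chosen in part from lists of genes that interferon induces, and their share was not tested against that of all promoters. Aif1, Ifi205, Ncoa7 and Psme1 were higher without each library in turn. Promoters of the last 3 are shown, 5′ to 3′ on the strand of the gene. The interferon-stimulated response motif or its reverse complement is in capitals. For Ncoa7 the promoter shown is that of 1 of its starts. A match is a string of letters and no measured site.
Ifi205, chr1:174031706-174032005, minus strand: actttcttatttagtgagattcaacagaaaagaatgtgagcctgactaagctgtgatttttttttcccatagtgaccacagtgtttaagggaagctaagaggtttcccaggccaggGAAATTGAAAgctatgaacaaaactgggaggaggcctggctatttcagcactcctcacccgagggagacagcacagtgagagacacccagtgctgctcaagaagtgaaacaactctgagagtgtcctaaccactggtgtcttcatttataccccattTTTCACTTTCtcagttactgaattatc
Ncoa7, chr10:30655818-30656117, minus strand: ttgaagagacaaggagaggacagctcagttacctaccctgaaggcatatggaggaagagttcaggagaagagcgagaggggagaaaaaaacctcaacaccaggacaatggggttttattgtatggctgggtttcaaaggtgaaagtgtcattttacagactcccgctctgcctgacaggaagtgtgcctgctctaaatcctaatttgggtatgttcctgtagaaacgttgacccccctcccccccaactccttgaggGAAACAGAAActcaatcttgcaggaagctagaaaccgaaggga
Psme1, chr14:55578244-55578543, plus strand: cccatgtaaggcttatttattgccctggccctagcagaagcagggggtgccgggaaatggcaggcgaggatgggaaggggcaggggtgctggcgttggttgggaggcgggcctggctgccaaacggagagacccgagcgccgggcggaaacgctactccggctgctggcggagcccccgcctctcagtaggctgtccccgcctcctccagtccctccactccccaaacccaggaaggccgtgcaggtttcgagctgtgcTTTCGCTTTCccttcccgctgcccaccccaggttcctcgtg
The matches begin 134 bases before and 23 bases after the start in Ifi205, 7 bases after it in Ncoa7 and 9 bases after it in Psme1, where the Ets and Irf match begins 15 bases after the start and overlaps the first.

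Interferon-induced genes did not move together. Of 4 tested, Ifi205, a DNA-binding protein of the p200 family, was higher and Ifi27l2a lower, and Isg15 (log2 -0.80 ± 0.41) and Bst2 (-0.01 ± 0.29) did not pass. Ifi205 had 92.9, 524, 178 and 442 CPM in members against 48.3, 41.6, 27.9 and 22.1 CPM in Cd209a-positive cells (log2 3.02 ± 0.41, SE, edgeR adjusted p = 1.7e-04), and stood at 4.36 without the cells that Scrublet marked as doublets and at 3.61 without young male. The groups did not overlap, but Ifi205 was also seen in 77.7% of fibroblast-gated barcodes, beside 48.3% of members and 5.16% of Cd209a-positive cells, and the part of free RNA was not tested. Ifi27l2a averaged 608 ± 354 CPM in members and 951 ± 436 CPM in Cd209a-positive cells (log2 -0.60 ± 0.19, edgeR adjusted p = 0.0457) and lost its call without young male, young female or aged male, and without the members that hold Cd209a.

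The cDC2 list was lower in members. Of 25 genes outside the gate 17 could be tested, and 14 were lower and 0 higher, with a median log2 of -2.0. Cd209a, which chose the comparison cells, is on this list. Its other genes entered the test in part through their level in those cells, so the count describes and adds no independent support. Itgam, Klf4 and Ccl17 did not pass. The count of lower genes ran from 9 of 15 without young female to 14 of 17 without labelled middle-aged male, where Itgam passed as lower and Clec12a, a lectin, as higher, and was 15 of 17 without the members that hold Cd209a. Clec12a was not tested in the 4 libraries together, and it was seen in 34.8% of members and 9.19% of Cd209a-positive cells. Summed, the list made up 3317, 3325, 6792 and 4726 CPM in members against 10359, 13592, 11511 and 11625 CPM in Cd209a-positive cells.

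Mgl2, the galactose-binding lectin CD301b, had 0, 34.9, 146 and 29.4 CPM in members against 391, 653, 639.8 and 591 CPM in Cd209a-positive cells (log2 -3.51 ± 0.40, SE, edgeR adjusted p = 2.8e-05). Its relative Clec10a had 13.3, 43.6, 32.4 and 58.9 CPM against 457, 256, 257 and 425 CPM (log2 -3.05 ± 0.38). Neither gene overlapped between the groups of the fitted libraries. Without the 12 members that hold Cd209a, 1 Mgl2 UMI was left in the fitted sums, a pooled ratio of 0.00627 (counting interval 1.6e-04 to 0.0351), and 2 Clec10a UMIs, a ratio of 0.0203 (0.00245 to 0.0737). With at least 5 cells per sum, Mgl2 stood at -2.29 and Clec10a at -2.46. In the unfitted aged female sum of 5 members Mgl2 stood at 1294 CPM, above the 1113 CPM of Cd209a-positive cells there, with 29 UMIs in 2 cells. Clec10a stood at 268 against 262 CPM in aged female, with 6 UMIs in members. In labelled middle-aged female both genes were at 0 in members, against 768 and 109.7 CPM. The membrane proteins Tmem176a (log2 -2.10 ± 0.31) and Tmem176b (-2.70 ± 0.44), the calcium-binding protein S100a4 (-2.26 ± 0.41), Ms4a6c (-1.93 ± 0.33) and Tnip3, an inhibitor of NF-kB signalling (-2.20 ± 0.27), were lower without each library in turn. Without the members that hold Cd209a, Tmem176a stood at -2.83, Tmem176b at -3.49 and S100a4 at -2.97. Tmem176b was at -3.40 without aged male, and S100a4 at -1.61 without young female. Lyz2, the lysozyme of myeloid cells, averaged 1863 ± 1014 CPM in members and 3587 ± 656 CPM in Cd209a-positive cells (log2 -0.98 ± 0.23) and lost its call without young male or young female. Clec4a2 (-2.06 ± 0.48) lost it without aged male and was not tested without young female. Fcgr3 (-2.13 ± 0.56) and Ear2 (-1.76 ± 0.52) lost it without young male, young female or aged male, and Ear2 was not tested without labelled middle-aged male. Without young female Fcgr3 stood at -1.28 and Ear2 at -0.80, and Ear2 also lost its call without doublets (edgeR adjusted p = 0.0549).

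Of 25 receptors for uptake 10 could be tested, and 8 were lower in members and Cd36 was higher, with a median log2 of -1.86. Of the lower ones Clec10a, Mgl2, Clec4a2 and Fcgr3 are also on the cDC2 list, and Cd36 is on the cDC1 list. Genes entered this test too in part through their level in Cd209a-positive cells, so the count describes and adds no independent support. Fcer1g, the signalling chain shared by Fc receptors, had 624, 375, 648 and 383 CPM in members against 1999, 1680.2, 1425 and 1634 CPM in Cd209a-positive cells (log2 -1.67 ± 0.19, SE, edgeR adjusted p = 2.8e-05), with no overlap. The mannose receptor Mrc1, also a macrophage gene, averaged 92.3 ± 125 CPM in members and 391 ± 124 CPM in Cd209a-positive cells (log2 -2.28 ± 0.46) and lost its call without young female or aged male. Mrc1 stood at -3.20 without the members that hold Cd209a. Ly75 (DEC-205) was too rare to test, with 8 UMIs in members and 0 in Cd209a-positive cells. The count of lower genes was 3 of 9 without young female and 3 of 12 without aged male.

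Among 5 tested genes of pattern recognition, Tlr2, the receptor for bacterial lipoproteins, and Cd14, the coreceptor for lipopolysaccharide, were lower in members, and the median log2 of the 5 was -0.95. Tlr2 had 0, 8.73, 48.6 and 0 CPM in members against 76.2, 109, 106 and 71.8 CPM in Cd209a-positive cells (log2 -2.71 ± 0.63). It lost its call without aged male and was not tested without young female. Cd14 averaged 260.1 ± 60.9 CPM in members and 513 ± 132 CPM in Cd209a-positive cells (log2 -0.89 ± 0.23) and lost its call without young female or aged male. Unc93b1, which carries Tlr3 and other receptors to endosomes, stood at log2 0.63 ± 0.27 (edgeR adjusted p = 0.147) and Nlrp3 at -0.95 ± 0.46.

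Of 10 tested chemokine receptors and ligands none was higher in members, and Ccr2, Ccl6 and Ccl9 were among the lower ones, with a median log2 of -0.93. Ccr2, the receptor that brings monocytes into tissue, averaged 222 ± 134 CPM in members and 439 ± 64.7 CPM in Cd209a-positive cells (log2 -1.0 ± 0.28) and lost its call without young male or young female. Ccl9 had 53.1, 26.2, 746 and 132 CPM in members against 716, 986, 1081 and 657 CPM in Cd209a-positive cells (log2 -2.31 ± 0.45), stood at -1.71 without young female and lost its call without aged male. Ccl6 stood at log2 -1.61 ± 0.31. Both ligands were highest in the members labelled middle-aged male. Ccl22, which attracts T cells with Ccr4, was untested, with 0 UMIs in members and 31 in Cd209a-positive cells, and was at least 2.65-fold lower in members over the fitted sums, with 3 counts as the floor.

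Of 9 tested cytokines and growth factor receptors, Ifngr1 was higher and Il1b and Il1rn were lower, with a median log2 of -0.55. Il1b, interleukin 1 beta, had 584, 934, 584 and 604 CPM in members against 1237, 1744, 1215 and 2661 CPM in Cd209a-positive cells (log2 -1.18 ± 0.20, SE, edgeR adjusted p = 0.00105), without overlap. Over all libraries Il1b stood at 796 CPM in members, 1657 CPM in Cd209a-positive cells and 462 CPM in gated cells with none of Xcr1, Clec9a and Cd209a, and it did not pass against all other gated cells (log2 -0.28, edgeR adjusted p = 0.524). Il1rn, its antagonist, stood at log2 -2.65 ± 0.66 and lost its call without young female (-1.66) or aged male, and without the members that hold Cd209a, and was not tested without labelled middle-aged male. Ifngr1 stood at 0.92 ± 0.29 (edgeR adjusted p = 0.0462) and lost its call without young female, labelled middle-aged male or aged male. Il12b, the interleukin 12 subunit that drives type 1 T cell responses, was too rare to test, with 14 UMIs in members, all in young male and young female, and 0 in Cd209a-positive cells, at least 18.2-fold higher in members over the fitted sums.

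Of 6 tested genes of costimulation and checkpoints, Havcr2 and Cd24a were higher and Tnfsf9 (4-1BB ligand) was lower (26.5 ± 21.7 CPM in members and 93.2 ± 11.6 CPM in Cd209a-positive cells, log2 -1.77 ± 0.49), losing its call without young male or young female. Without the members that hold Cd209a, 1 Tnfsf9 UMI was left in them, a pooled ratio of 0.0372 (counting interval 9.3e-04 to 0.211). Tnfsf9 stood at -2.43 without aged male. Cd86 and Cd47 stood at log2 -0.32 ± 0.38 and -0.45 ± 0.20, not past the threshold. Among 10 tested integrins and adhesion genes, Cadm1 and Jaml were higher (median log2 -0.01). Jaml, which binds the receptor Cxadr, stood at log2 1.28 ± 0.37 (edgeR adjusted p = 0.0290) and lost its call without young female or aged male. The integrin chain Itga4 stood at 0.66 ± 0.24 and Itgam at -1.71 ± 0.57, with edgeR adjusted p of 0.0811 and 0.0603.

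Other genes that the rule named as lower had few UMIs in members. Tnfrsf1b, the second receptor for tumour necrosis factor, had 2 UMIs in members and 111 in Cd209a-positive cells of the fitted libraries, a pooled ratio of 0.0702 (counting interval 0.00840 to 0.260, fitted log2 -3.70 ± 0.66). Slamf9 (log2 -3.22 ± 0.58), Fcrls (-3.0 ± 0.46), Wfdc17 (-2.89 ± 0.36), the interleukin 7 receptor Il7r (-2.85 ± 0.49) and the guanine deaminase Gda (-2.72 ± 0.46) were lower without each library in turn. Without doublets Slamf9 stood at -3.93, and with at least 5 cells per sum Slamf9 stood at -2.50 and Gda at -2.13. Without the members that hold Cd209a, Wfdc17 stood at -3.78, Fcrls kept 3 UMIs (pooled ratio 0.0434, counting interval 0.00890 to 0.128) and Il7r 0 UMIs, at least 24.7-fold lower with 3 counts as the floor. With at least 5 cells per sum Il7r lost its call (log2 -2.13, edgeR adjusted p = 0.0518). Flrt3 (-3.07 ± 0.65) lost its call without young female (-2.22) or aged male. Its 5 UMIs in members of the fitted libraries were all in labelled middle-aged male, at 81.0 CPM, and Flrt3 was at 0 in members of the other 3. Without the members that hold Cd209a 1 of the 5 was left (pooled ratio 0.0242, counting interval 6.1e-04 to 0.136). Retnla, a secreted protein induced by type 2 cytokines, had 26.5, 105, 5738 and 88.3 CPM in members against 577, 4135, 7091 and 1866 CPM in Cd209a-positive cells (log2 -2.80 ± 0.56). Its level among members was set almost wholly by the labelled middle-aged male library, and it lost its call without young female (Retnla at -1.77) or aged male.

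Dissociation and immediate early genes mostly did not pass the test. Of 23 tested, Ier3, Nfkbia and Socs3 were lower and 20 did not pass (median log2 0.10), Fos at 0.48 ± 0.18 and Atf3 at -0.61 ± 0.20 (edgeR adjusted p = 0.0993 and 0.0596) among them. Nfkbia, the inhibitor of NF-kB, averaged 480.5 ± 135 CPM in members and 976 ± 181 CPM in Cd209a-positive cells (log2 -0.94 ± 0.22). Nfkbia and Ier3 (-1.43 ± 0.35) lost their calls without young male, young female or aged male, and Socs3 (-1.15 ± 0.31) without young male or young female.

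Among 8 tested cell cycle genes, H2afz and Hmgb2, chromatin proteins that cycling cells also make more of, were higher, and Mki67, Top2a and 4 others did not pass (median log2 -0.35). H2afz, a histone variant, had 3608, 2845, 2367 and 2989 CPM in members against 1887, 1863, 1864 and 1557 CPM in Cd209a-positive cells (log2 0.81 ± 0.14, SE, edgeR adjusted p = 0.00110) and lost its call without aged male. Hmgb2 stood at 0.92 ± 0.22 and lost its call without young male, young female or aged male. Mki67 stood at -0.61 ± 0.41 and Top2a at -0.36 ± 0.39. After thinning, at least 1 UMI of 6 cycling genes was seen in 20.8%, 11.5%, 5.56% and 7.69% of members against 11.2%, 17.6%, 7.5% and 7.14% of Cd209a-positive cells. The mean difference was 0.537 points (SD 6.67, n = 4, exact sign-flip p = 0.875, smallest possible 0.125), and it was -2.36 points in full counts and -2.50 points without young male. In full counts 1.90% of fibroblast-gated barcodes held such a UMI.

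**Figure D4:**
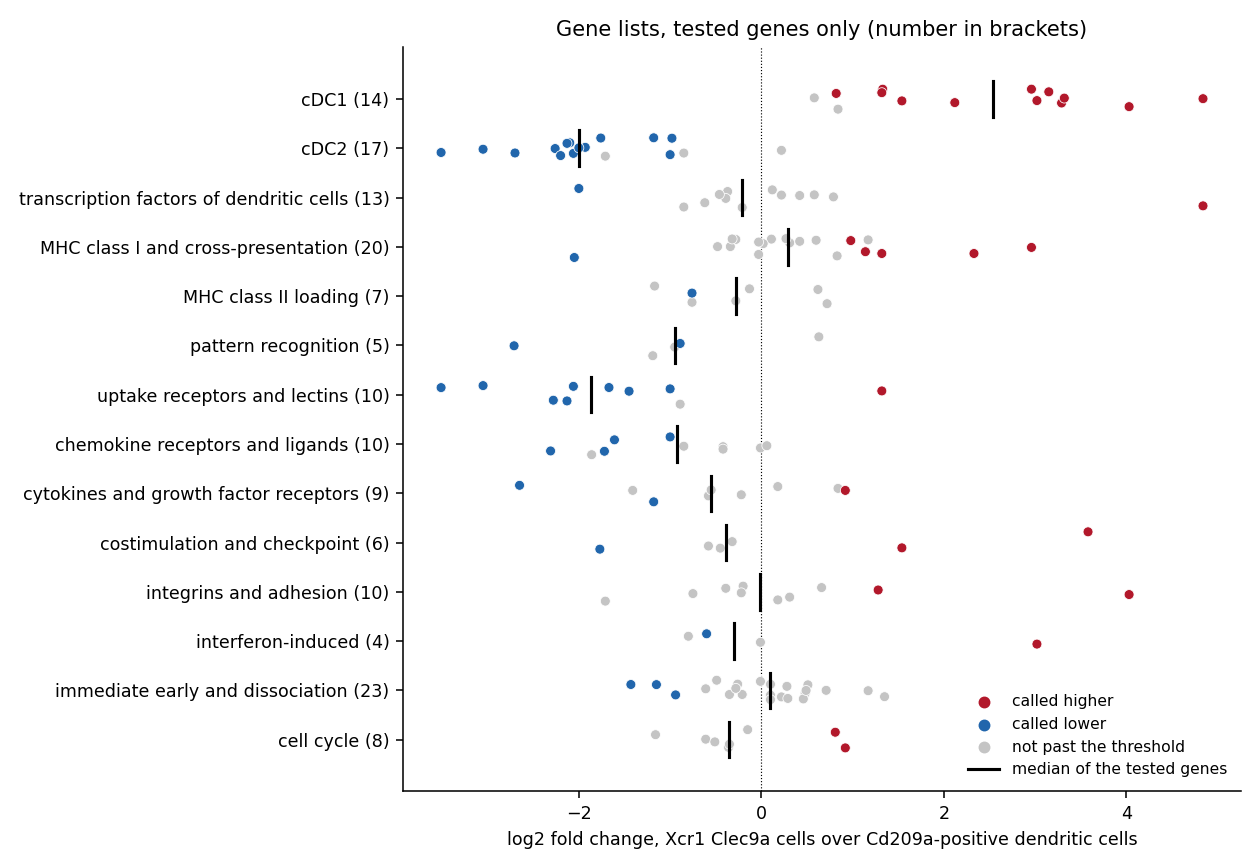
Log2 fold change of members over Cd209a-positive cells for each tested gene of 14 lists, coloured by call, with a bar at the median of the list. The cDC1 list lies at the right (12 of 14 called higher), the cDC2 list (14 of 17 called lower) and the uptake receptors (8 of 10) lie at the left, and the other lists centre within a log2 of 1 of 0. Clec10a, Mgl2, Clec4a2 and Fcgr3 are called lower in both the cDC2 list and the uptake receptors, so these lists are not separate results.

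Markers of other cells were checked as whole lists. Of 8 fibroblast markers 5 were tested and none passed (Col3a1 stood at 0.36 ± 0.29), and the summed list stood at 9445, 899, 3517 and 118 CPM in members against 7629, 1952, 1589.7 and 166 CPM in Cd209a-positive cells. NK cell markers were at 0 UMIs in members. T cell markers were at 0 to 32.4 CPM in members and 0 to 55.9 CPM in Cd209a-positive cells. Cd3g, Trac and Trbc2 were at 0 in both groups, and Lck in members only. Monocyte markers had 3 of 4 tested genes lower (Ccr2, Ms4a4c and F13a1), at 262 to 1446 CPM in members and 822 to 1631 CPM in Cd209a-positive cells, and migratory dendritic cell markers had Birc3 lower of 3 tested. Of 3 tested plasmacytoid dendritic cell markers none passed. No gene of the neutrophil, B cell, endothelium, smooth muscle, epithelium and erythrocyte lists could be tested. The erythrocyte list summed to 13.3, 0, 0 and 0 CPM in members against 12.7, 9.60, 11.2 and 3693 CPM in Cd209a-positive cells. In the unfitted aged female sums it stood at 1249 and 49.6 CPM. The part of this RNA in the comparison was not tested. Macrophage markers outside the gate had Mrc1 lower of 3 tested. Mertk was at 0 in both groups, and Fcgr1 in members only.

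The mast cell list could not be tested, and it summed to 26.5, 192, 81.0 and 73.6 CPM in members against 2.54, 6.40, 30.7 and 5.52 CPM in Cd209a-positive cells. Of its 5 genes Cpa3 and Cma1 were at 0 in members, Mcpt4 and Tpsb2 had 1 UMI each, and the rest was Kit, the receptor for stem cell factor. Kit had 26.5, 175, 81.0 and 73.6 CPM in members against 2.54, 0, 14.0 and 5.52 CPM in Cd209a-positive cells, and the groups did not overlap. Over all libraries this was 34 and 8 UMIs. Without young male 1 gene of the list could be tested, and it was higher in members (log2 4.07).

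The members labelled middle-aged male stood apart. Their macrophage list summed to 956 CPM, against 131 to 265 CPM in members of the other 3 fitted libraries, and their chemokine list to 5949 CPM, against 1339.9 to 2149 CPM. Cd209a-positive cells of the same library had 992 CPM and 6300.3 CPM of these lists. Of the 18 members of this library 15 rested on 1 Xcr1 or Clec9a UMI. In young male it was 17 of 24, in young female 12 of 26 and in aged male 4 of 13. The cDC2 list of the 18 summed to 6792 CPM, above their cDC1 list at 3647 CPM. In young male, young female and aged male members the cDC2 list stood at 3317, 3325 and 4726 CPM. The parts of macrophage RNA and of cDC2-like cells in the levels of these 18 members were not tested. Without this library, 13 named genes moved by over 1.5 times, all further from 0. Cadm1 stood at a log2 of 4.86. Of the lower genes Mgl2 stood at -4.49, Slamf9 at -4.34, Fcrls at -3.70, Wfdc17 at -3.63, Retnla at -4.81, Gda at -4.41 and Tlr2 at -4.24. Clec4a2 stood at -2.79, S100a4 at -3.03, Fcgr3 at -3.10, Mrc1 at -3.58 and Ccl9 at -3.55. Flrt3, with 0 UMIs left in members, is not among these 13.

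Age was compared within the members as far as their number allowed. Of the 6 libraries 4 had at least 10, which left no residual degree of freedom for the model of age and labelled sex, so it gave no test. With sex left out, the middle-aged and the aged arm were 1 library each, taken to vary like the young ones (1 residual degree of freedom). This fit of edgeR called 0 of 1386 genes (0%) in aged against young members, with 90 at an unadjusted p under 0.05. In middle-aged against young members it called 3 (0.216%), Retnla, Lyz1 and Ccl9, all higher, and this is the library whose macrophage list stood apart. With sums of at least 5 cells, which adds aged female and its 5 members, age and labelled sex were both in the model, again with 1 residual degree of freedom. There 17 of 1467 genes (1.16%) passed in aged against young, 2 higher (0.136%) and 15 lower (1.02%). In middle-aged against young it was also 17, with 13 higher (0.886%) and 4 lower (0.273%), and Mrc1 and Wfdc17 were among the higher ones. Xist was among them too, and follows the label, since the library labelled male had 1329 CPM in members, against 0 and 1012 CPM in young male and young female ones. In aged against young the lower ones were led by the matrix genes Col3a1, Sparc, Col1a1 and Col1a2, and Col3a1 had 0 and 0 CPM in aged male and aged female members and 2972 and 332 CPM in young male and young female ones. The summed fibroblast list stood at 118 and 0 CPM in aged and 9445 and 899 CPM in young members, and its part in these calls was not tested. There each of the higher ones rested on 1 aged library, Mgl2 with 29 UMIs in aged female and 2 in aged male, and Lyz1 with 51 UMIs in aged male and 1 in aged female. The 29 Mgl2 UMIs lay in 2 of the 5 aged female members. Over all libraries, 43 of the 44 Mgl2 UMIs were in the 12 members that also held Cd209a. The cDC1 list made up 4372 and 5130.3 CPM in aged and 4378 and 6327 CPM in young members, and Irf8 515 and 758 CPM in aged and 504 and 707 CPM in young members.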

How the data were processed

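Cells of 6 libraries were read by droplet RNA sequencing. The deposited values are raw UMI counts for each gene in each barcode. Per the submitters' processing notes the authors used Cell Ranger 3.0.2, mm10 and Seurat. The labels name 10x 3′ v2 chemistry. Each deposited matrix lists 6794880 barcodes, so empty droplets are still in them. Steps on free RNA or doublets are not given in the sources used here.

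From these counts the barcodes were gated as described, and symbols shared by several of the 31053 gene IDs were summed. Scrublet (expected doublets 6%) marked 577 barcodes (2.36%), which were kept in. UMIs were summed per library and cell group where a group had at least 10 cells, which 4 of 6 libraries met. Genes were filtered with filterByExpr, the 13 gate genes were taken out, and members were compared with Cd209a-positive cells by edgeR 4.0.16 (R 4.3.3, TMM, quasi-likelihood, library as block, 3 residual degrees of freedom), with p adjusted over all 1884 genes. DESeq2 1.42.0 was an alternative. The SE is the size of the log2 fold change divided by the square root of F. Shares were compared by exact permutation over libraries (scipy 1.17.1), and intervals are exact Clopper-Pearson or Poisson ones and cover counting error only. A fold against 0 UMIs takes 3 counts over the group as its floor. The sums are paired by library, since both groups come from the same one. Gene coordinates are those of GENCODE M21 for the 30934 IDs found there, and promoters are from RefSeq (GRCm38.p6). The fit was tested on counts simulated for this comparison, with 1940 genes tested. These counts had 1 dispersion of 0.1 for every gene and libraries that differed in size only. The changed genes were drawn from the more highly counted ones. Of 80, 54 and 66 genes changed by a log2 of 1, 2 and 3, the filter left 72, 41 and 57 to test. The fit called 19, 37 and 57 of them (26.4%, 90.2% and 100% of those tested), with 1 false call among 1770 unchanged genes.

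The rule named the genes of the cDC1 and cDC2 lists, up to 12 calls in each direction by fold (at 30 CPM or more in the higher group, and moved alike in every fitted library), and up to 4 genes of every other list by p. Other genes of these lists that the text names, such as B2m, Psmb8, Fos and Mki67, were picked for their role with their values seen. The members, the gene lists and these rules were chosen with earlier results of these data known. Fibroblast-gated barcodes served as the reference for free RNA. The model of age and labelled sex within members had no residual degree of freedom, so age was tested with sex left out, where 2 of the 3 ages had 1 library, and with sex in the model over sums of at least 5 cells. A gene of the chemokine list is not reported here.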

Additional observations from a re-analysis of the deposited data

How the results depend on the processing

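The count of genes that differed between Xcr1 Clec9a cells and Cd209a-positive cells was 250. It was 129 with DESeq2 and 98 with no replicate block, that is without pairing the sums by library. Without the filter on low counts it was 388, with 85 higher and 303 lower in place of 123 and 127. In that fit 21.9% of calls were higher, against 49.2% with the filter, and the median log2 of all genes was -0.43. With cells thinned to 1000 UMIs it was 55 of 436 genes tested. Leaving out 1 library at a time gave 86 to 321. The other settings (DESeq2 size factors, other minimums of cells, Cd209a-free members, no doublets, all other gated cells) gave 207 to 331. Leaving out both middle-aged libraries is the same fit as leaving out the one labelled male, since the one labelled female was not fitted. Of the 60 named genes that passed, 15 did not pass with DESeq2 and 23 did not with no replicate block. The aged minus young share of gated cells was 1.33 points, -0.425 after thinning, and -2.33 to 5.00 without 1 library. The share of kept barcodes was -0.0408 points, 0.0232 with at least 2 Xcr1 and Clec9a UMIs, and -0.184 to 0.102 without 1 library. The share with a cycling gene was 0.537 points, -2.36 in full counts, -0.947 with at least 2 such UMIs, and -2.50 to 2.75 without 1 library. The log2 ratio of UMIs per cell was 0.285, 0.561 with at least 2 such UMIs, and 0.244 to 0.340 without 1 library. Signs turned in 3 genes that did not pass. Klf4 was 0.22, but -0.09 without the low-count filter, 0.00 with at least 20 cells per sum, -0.42 against all other gated cells, and -0.05 to 0.31 without 1 library. Ccl17 was -0.85, but 0.46 with at least 2 such UMIs and 5 cells per sum, a setting chosen after seeing the data because 10 cells left 1 library. Bst2 was -0.01, but 0.05 with no replicate block, 0.01 without both middle-aged libraries, and -0.20 to 0.27 without 1 library. The causes were not tested. In the smallest member sum, of 61692 UMIs, 1 UMI stood for 16.2 CPM, which limits what can be said of rare genes.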

Other observations

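Gene families that no list held were read by symbol after their values were seen, so they get no test as groups. Over all 1884 genes tested, 6.53% were higher in members and 6.74% lower. Of 81 tested ribosomal protein genes 24 were higher in Xcr1 Clec9a cells than in Cd209a-positive cells and 1, Rps27l (log2 -1.0 ± 0.21, SE), was lower by the edgeR test, with a median log2 of 0.30. The largest of the 24 by log2 was Rplp1 (0.59 ± 0.12, SE, edgeR adjusted p = 0.00365). Of 10 tested cathepsins and LAMP proteins, the proteases and membrane proteins of lysosomes, 7 were lower and none was higher, with a median log2 of -0.92. Ctsa stood at -1.21 and Lamp1 at -1.18. Of 8 tested NF-kB genes 5 were lower, with Nfkbiz at -1.31 and Rela at -1.44. Both metallothioneins, Mt1 (-1.44) and Mt2 (-1.69), which bind zinc and copper, were lower. Of 19 tested proteasome genes 4 were higher, Psmb8, Psmb9, Psme1 and the assembly factor Pomp (1.14 ± 0.22).

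Among the 1051 gated cells with no Xcr1, Clec9a or Cd209a UMI, Irf8 was seen in 145 (13.8%).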
